A study of Mus musculus with 6 samples.

Results

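The genome of the mouse holds many sequences more than once, and CTCF sites lie in some of them. Of the 56277 regions on chromosomes 1 to 19 in which a CTCF peak was called in at least 1 of 4 chromatin immunoprecipitation sequencing (ChIP-seq) libraries, 3533 (6.28%) lay on multi-copy sequence. A region counted as multi-copy when the stretches of 31 bases (31-mers) read from it every 10 bp had a median of more than 1 exact copy in the mm9 genome, both strands together. Among these regions the choice used the genome sequence alone and no ChIP-seq value. To be among them, however, a region needed a peak in at least 1 library. The remaining 52744 regions are called other regions, and the whole table, sex chromosomes included, held 57662.

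The libraries came from mouse embryonic stem cells, pluripotent cells derived from the early embryo, with 2 CTCF libraries of genotype WT_CTCF and 2 of genotype MUT_CTCF. In both genotypes the tagged endogenous CTCF was degraded with auxin and a transfected vector supplied the protein instead, unchanged in WT_CTCF and with a threonine-to-alanine change that removes a site of O-GlcNAc, a sugar placed on serines and threonines, in MUT_CTCF. Both were picked clones, so genotype and clone cannot be told apart, and the replicates were described as biological. An input library of each genotype was not analysed here.

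CTCF recognises a long DNA motif with its zinc fingers, blocks the extrusion of loops by cohesin and marks boundaries of chromatin domains. Transposable elements are known carriers of its sites. In rodents the B2 family of short interspersed elements, which spread by copying RNA back into DNA, has brought CTCF motifs to many new places. Other copies arise when a stretch of chromosome is duplicated, and then genes and sites are repeated next to each other. Sequence of either kind is hard to measure, because a short read that aligns equally well to several places cannot be assigned to one of them. The authors removed such reads before they called peaks or counted, so every value below rests on reads that could be placed. The part this removal has in the values was not tested. The depth of the libraries is not known from these files, and whole lists held 49987 and 54001 peaks in the WT_CTCF replicates and 33939 and 32712 in the MUT_CTCF replicates. From spike-in normalized ChIP-seq and immunoblots, the paper reported more CTCF bound to chromatin in MUT_CTCF. Peak lists and scores, compared below, are other measures, and how they relate to that result was not tested.

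Most multi-copy regions held the same 12-base string. The 12-base core CCANNAGNNGGC, the well conserved part of the CTCF motif, with N standing for any base, was searched on both strands. It was found in 2389 of the 3533 multi-copy regions (67.6%) and in 24202 of the 52744 other regions (45.9%), a difference of 21.73 percentage points. In intervals of the same width placed 5000 bp to either side, 3.24% held it beside multi-copy regions and 4.82% beside other regions. Among the 2561 matches in multi-copy regions, 2232 (87.2%) were the single string CCAGAAGAGGGC, which made up 11441 of 25823 matches (44.3%) in other regions. That string was present in 2115 multi-copy regions (59.9%) and in 10994 other regions (20.8%). The most frequent base at each position around it is shown first, for multi-copy regions and then for other regions, 5′ to 3′ along the strand of the core, which is in capitals.

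Multi-copy regions, consensus of 2232 matches: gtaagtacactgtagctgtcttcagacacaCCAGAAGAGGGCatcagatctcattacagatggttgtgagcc

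Other regions, consensus of 11441 matches: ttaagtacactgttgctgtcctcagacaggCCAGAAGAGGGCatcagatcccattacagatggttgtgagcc

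Both consensus sequences are of the B2 kind, named here from general knowledge of the element and not from a repeat annotation. In the multi-copy regions the base of the upper consensus was carried by 54.4% to 97.6% of matches over the 60 flanking positions, with a median of 89.3%. A match had a median identity of 90% to the upper consensus over these positions, against 50% in other regions, where the quartiles were 35.0% and 85.0%. The flanks were not particular to multi-copy regions. Of the 3009 CTCF regions with the string and at least 90% identity, 1296 (43.1%) were multi-copy. Likeness of multi-copy matches to one another is in part set by the way the regions were chosen.

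Single sites are shown to compare strong and weak regions. The first 3 below are the multi-copy regions with this core and the highest authors' mean (the authors' spike-in scaled read count per region, averaged over the 4 libraries), and the next 3 are those with the most copies. All are written along the strand of the core, with the core in capitals and mm9 positions of the window.

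chr15:63660275-63660346, minus strand, in Gsdmc2: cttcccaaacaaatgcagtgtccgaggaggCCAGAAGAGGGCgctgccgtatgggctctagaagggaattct

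chr9:64126222-64126293, plus strand, 3098 bp from Tipin: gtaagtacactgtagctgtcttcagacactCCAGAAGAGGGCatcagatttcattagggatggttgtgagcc

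chr11:87259106-87259177, plus strand, in Tex14: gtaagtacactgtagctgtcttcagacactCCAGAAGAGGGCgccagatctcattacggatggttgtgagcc

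chr3:146104062-146104133, plus strand, in Dnase2b: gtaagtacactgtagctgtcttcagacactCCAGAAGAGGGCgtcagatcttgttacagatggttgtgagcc

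chr17:32328282-32328353, plus strand, 1732 bp from Ephx3: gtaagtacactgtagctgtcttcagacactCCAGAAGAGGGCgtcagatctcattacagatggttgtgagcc

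chr10:84543992-84544063, plus strand, 15648 bp from Fhl4: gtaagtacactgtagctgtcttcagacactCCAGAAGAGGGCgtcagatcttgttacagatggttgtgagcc

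The region at Gsdmc2, a gasdermin gene of a local gene cluster, was the exception in sequence, with 23.3% identity to the consensus and a median of 1.5 copies. It had an authors' mean of 843.75 and peak scores of 1998 and 1957 in the WT_CTCF replicates and 1198 and 970 in the MUT_CTCF replicates. The other 5 windows had 93.3% or 96.7% identity. Near Tipin, which encodes a replication fork protein, the mean was 466.25 and the scores were 1313 and 1392 in WT_CTCF and 609 and 579 in MUT_CTCF. In Tex14, needed for germ cell bridges, the mean was 289.25 and the scores were 840 and 961 in WT_CTCF and 372 in each MUT_CTCF replicate. Both regions had a median of 2 copies. In the 3 windows with the most copies the medians were 2818 copies in Dnase2b, 2782 near Ephx3 and 2539 near Fhl4, and the means were 17.75, 20.25 and 22.75. Each was called in a single WT_CTCF library, with a score of 37, 37 and 38, and in no MUT_CTCF library. The summits in Tex14 lay 22, 29, 2 and 20 bp from the centre of the core shown, and those of the 3 regions with the most copies 32, 23 and 15 bp. Near Tipin they lay 544 to 563 bp from the core shown, which is at the far end of a region of 1340 bp with 2 cores, and in Gsdmc2 377 to 404 bp. The scores of these last regions are therefore not shown to belong to the copy printed.

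Most summits lay near the core. In multi-copy regions holding this string, the summit was a median of 16, 18, 17 and 15 bp from the centre of the core in WT_CTCF replicates 1 and 2 and MUT_CTCF replicates 1 and 2. Within 50 bp of it lay 87.1%, 85.0%, 88.7% and 88.7% of summits. Other regions with the same string had a median distance of 12 bp in every library. These regions had been picked for holding the string, and no chance level was computed. Repeated 31-mers surrounded the core as a block. Of the 31-mers centred about 15 bp downstream, 88.0% were repeated, with a median of 89 copies. The share was 20.8% at 75 bp upstream and 7.85% at 125 bp downstream, beyond the ends of the block. Farther out it was higher again, 55.1% at 195 bp upstream and 52.8% at 195 bp downstream in the regions wide enough. Across all multi-copy regions called in a library, the 31-mer at the summit was itself repeated in 75.3% and 75.2% of WT_CTCF peaks and in 68.5% and 66.2% of MUT_CTCF peaks. High shares are in part built in, because the regions were chosen for repeated 31-mers. Over the whole of these regions the median share of repeated 31-mers was 61.5% and 61.9% in the WT_CTCF replicates. It was 60.7% in MUT_CTCF replicate 2 and slightly lower in MUT_CTCF replicate 1. The excess at the summit was not tested.

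**Figure D1:**
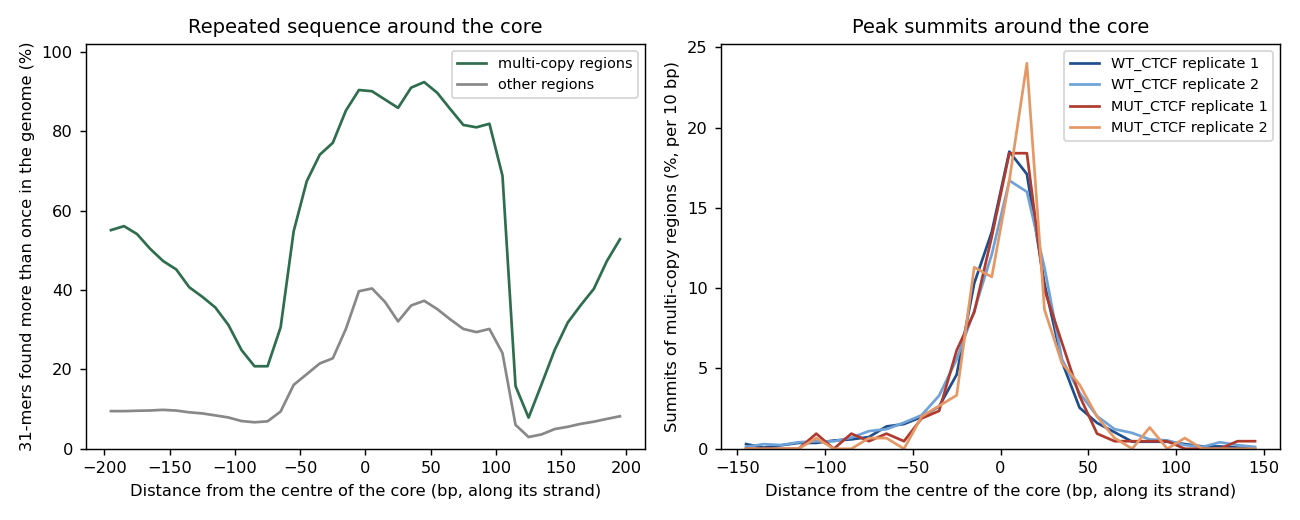
Left, share of 31-mers found more than once in the genome (%, vertical axis) by distance from the core (bp, horizontal axis) in regions holding CCAGAAGAGGGC, for 2115 multi-copy and 10994 other regions; right, share of peak summits of multi-copy regions (% per 10 bp) by the same distance, one line per library. The repeated block around the core ends between 65 and 55 bp upstream and between 95 and 115 bp downstream, and the summits of all 4 libraries gather within 50 bp of the core.

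A full CTCF motif was rarer. The 13-base CTCF consensus used for the whole table was met exactly in 110 multi-copy regions (3.11%) and in 7013 other regions (13.3%), and with at most 1 mismatch in 69.9% and 59.8%. The common core string differs from that consensus at 1 position. The share holding the core was similar at all copy numbers above 1, with 63.0%, 69.8%, 69.2% and 68.2% in regions with a median of above 1 to 2, above 2 to 9, above 9 to 99 and above 99 copies.

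Genome wide, CCAGAAGAGGGC occurs 48308 times on chromosomes 1 to 19, and 13673 of these places (28.3%) lay in a CTCF region, 2232 of them in multi-copy regions. Where the 31-mer centred on the core was found once, 42.3% of 16897 places lay in a region. The share was 29.3% of 2442 places for 31-mers with 2 copies, 27.1% of 4750 with above 2 to 9 copies, 21% of 7437 with above 9 to 99 copies and 17.7% of 16782 with above 99. Per library, the share in a called region went from 38.5% for single places to 13.6% for those above 99 copies in WT_CTCF replicate 1, and from 40.4% to 15.7% in replicate 2. In MUT_CTCF it went from 26.4% to 4.93% in replicate 1 and from 25.2% to 4.45% in replicate 2. Most places with this string were thus outside any called region, whatever the copy number.

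Multi-copy regions were called less often than other regions in all 4 libraries. Peaks were called in 2279 and 2919 multi-copy regions in WT_CTCF replicates 1 and 2 and in 550 and 456 in MUT_CTCF replicates 1 and 2. These are 64.5%, 82.6%, 15.6% and 12.9% of them, beside 87.8%, 94.2%, 61.2% and 59.2% of other regions. The mean called share of multi-copy regions was 73.6% ± 12.8 in WT_CTCF and 14.2% ± 1.88 in MUT_CTCF (SD, n = 2), and that of other regions was 91.0% ± 4.49 and 60.2% ± 1.45. The MUT_CTCF share was thus 0.194 of the WT_CTCF share in multi-copy regions and 0.661 of it in other regions. The number called was lower by 2096 on average in MUT_CTCF, 503 ± 66.47 against 2599 ± 452.5 (SD, n = 2), and the groups did not overlap (exact permutation of the library labels, two-sided, p = 0.333, the smallest it can give). Relative to other regions, the called share was 0.7343 and 0.8771 in WT_CTCF and 0.2543 and 0.2181 in MUT_CTCF, again without overlap (same exact test, p = 0.333). Members minus others, the called share differed by -23.34, -11.57, -45.66 and -46.27 percentage points in the 4 libraries, a mean of -31.71 (exact two-sided sign-flip test over 4 libraries, p = 0.125, the smallest it can give). The exact tests used here cannot reach 0.05 with 2 libraries a group. Every region was counted because at least 1 library called it, and the WT_CTCF lists were longer. The called shares of the genotypes depend on this entry rule, and its part in their difference was not tested. With scores below 250, the median over the 4 lists together, left out, the differences between genotypes were far smaller, -163.5 in the number called and -0.05681 in the relative called share. Most called multi-copy regions scored below 250 in every library, with medians of 62 to 96. Few calls were thus left to differ, and the smaller values do not show that the genotypes were alike.

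By pattern over the libraries, 375 multi-copy regions (10.6%) were called in all 4, beside 52.7% of all 56277 regions. In both WT_CTCF and no MUT_CTCF library, 1113 (31.5%) were called, beside 19.5% of all regions. In 1 WT_CTCF library only, 1793 (50.8%) were called, beside 18.7% of all regions. Regions of both these patterns were counted through WT_CTCF peaks alone. The reverse pattern, both MUT_CTCF and no WT_CTCF library, was met by 3 multi-copy regions (0.0849%) of 16 in all (0.0284%). Replicates shared fewer of their multi-copy peaks than of their others. The WT_CTCF replicates had 1684 called multi-copy regions in common, 73.9% of those of replicate 1 and 57.7% of those of replicate 2, against 93.7% and 87.4% for other regions. The MUT_CTCF replicates had 379 in common, 68.9% and 83.1%, against 91.0% and 94.2%. Multi-copy regions called in MUT_CTCF were mostly also called in WT_CTCF, though less often than other regions. Of them, 517 of the 550 of MUT_CTCF replicate 1 (94%) were called in WT_CTCF replicate 1, and 445 of the 456 of MUT_CTCF replicate 2 (97.6%) in WT_CTCF replicate 2. Other regions had 99.1% and 99.6%. The 589 multi-copy regions called in WT_CTCF replicate 1 alone had a median score of 47, and the 1204 called in replicate 2 alone also had 47. Those called elsewhere too had 79 and 90.

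More copies went with fewer calls. In the class of above 1 to 2 copies (894 regions) 72.3% and 87.1% were called in the WT_CTCF replicates and 28.2% and 25.7% in the MUT_CTCF replicates. In the class of above 2 to 9 copies (1035 regions) the shares were 65.4%, 83.5%, 15.9% and 13.2%. They were 62.7%, 81.4%, 11.0% and 7.44% in the class of above 9 to 99 copies (981 regions). Above 99 copies (623 regions) they were 54.7%, 76.6%, 4.01% and 2.57%. The order of the 4 classes was the same in every library. The classes also differed in strength and size: from the lowest to the highest copy class the median authors' mean was 37.0, 31.75, 27.5 and 22.75, and the median width was 296, 266, 243 and 215 bp.

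**Figure D2:**
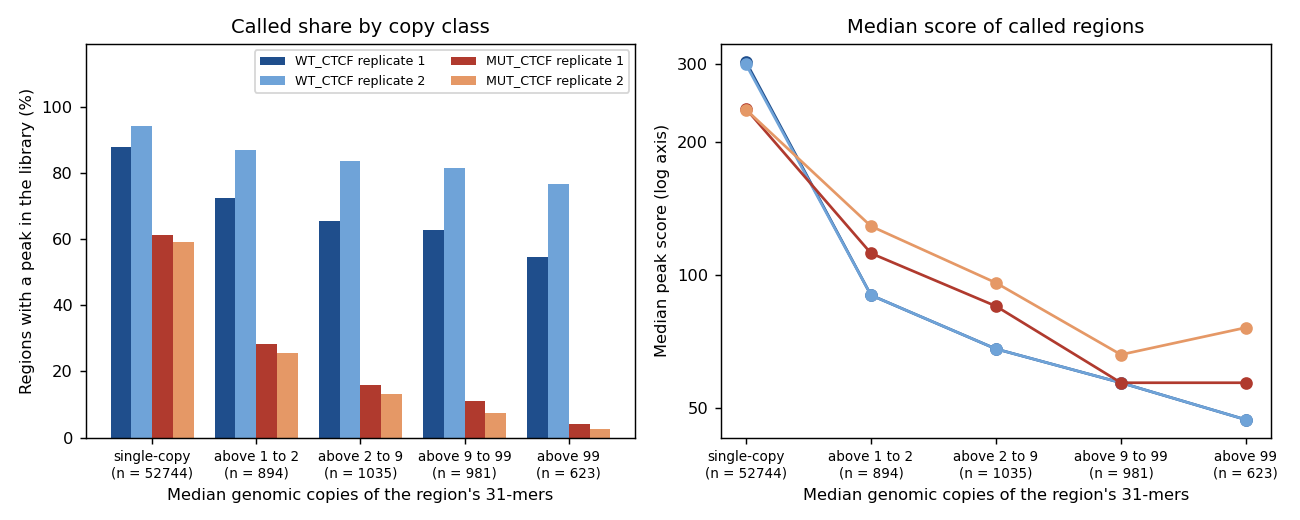
Left, share of regions with a peak (%, vertical axis, bars for the 4 libraries) by median genomic copies of the region's 31-mers (horizontal axis, number of regions in brackets); right, median peak score of called regions on a log axis, where the lines of the 2 WT_CTCF replicates lie on each other. Called shares are lower in each higher copy class in all libraries, down to 4.01% and 2.57% in MUT_CTCF above 99 copies.

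Multi-copy regions were weak and narrow. Their median authors' mean was 29.5 scaled reads per region, with quartiles of 21 and 44.25 and a range of 4.5 to 5020, against a median of 106 in other regions. Per kb, the median was 119.6 against 234.1, a ratio of 0.5107. The peak score, a number set by the authors with the peak caller whose definition was not stated, had a median of 68 and 62 in the WT_CTCF replicates and 84 and 96 in the MUT_CTCF replicates. Other regions had 304, 300, 238 and 237. The difference between them averaged -192.2 over the 4 libraries (exact sign-flip test, p = 0.125). Median peak widths were 242, 249, 270.5 and 263.5 bp, against 441, 453, 387 and 378 bp in other regions, a mean difference of -158.5 bp (exact sign-flip test, p = 0.125).

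The median score of multi-copy regions was higher in MUT_CTCF, 90 ± 8.485 against 65 ± 4.243 in WT_CTCF (SD, n = 2), a difference of 25 with no overlap (exact permutation test, p = 0.333). Relative to other regions the ratio of medians was 0.379 ± 0.03686 in MUT_CTCF and 0.2152 ± 0.01203 in WT_CTCF (SD, n = 2; exact permutation test, p = 0.333). The regions behind these medians are not the same, since far fewer were called in MUT_CTCF. Over the 375 multi-copy regions called in all 4 libraries, the MUT_CTCF score was lower, with a median log2 ratio of -1.19 (a ratio of 0.438), and over 29308 other regions it was -1.17 (0.443). Counting only scores at or above 250, the median score of multi-copy regions was 37.5 lower in MUT_CTCF.

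At a given signal the called shares of multi-copy and other regions lay closer together than over all signals. For means above 60 to 100, 98.6%, 99.7%, 64.7% and 50.5% of 289 multi-copy regions were called in WT_CTCF replicates 1 and 2 and MUT_CTCF replicates 1 and 2, and 98.2%, 99.2%, 60.3% and 52.7% of 8172 other regions. For means above 40 to 60, the shares were 89.1%, 95.7%, 16.4% and 8.79% of 512 multi-copy regions and 87.2%, 93.1%, 14.0% and 9.03% of 6532 other regions. For means above 30 to 40, the shares were 73.5%, 88.1%, 3.13% and 1.72% of 638 multi-copy regions. Of 4187 other regions they were 65.8%, 82.0%, 2.22% and 1.03%, the widest gap in both WT_CTCF replicates. For means above 20 to 30, they were 53.7%, 70.5%, 0.585% and 0.683% of 1025 multi-copy regions and 47.2%, 71.5%, 0.42% and 0.272% of 4044 other regions. Between means of 20 and 100, the difference in called share averaged over the libraries, members minus others, was 1.519, 3.861, 1.652 and 0.804 percentage points in the 4 ranges, the opposite sign to the pooled -31.71. For means above 100 to 200 and above 200 it was -0.5427 and -0.9916 points, of the pooled sign and close to 0. The 2 sets fill the ranges unequally: 51.7% of multi-copy regions and 12.5% of other regions had a mean of 30 or less. The mean itself is over the same 4 libraries, so the ranges are not independent of the calls. The motif stayed apart within them, at 73.8% against 34.3% with the core for means above 20 to 30 and 58.8% against 45.9% for means above 60 to 100. Above 200 the order was turned, with 42.7% against 53.9%.

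**Figure D3:**
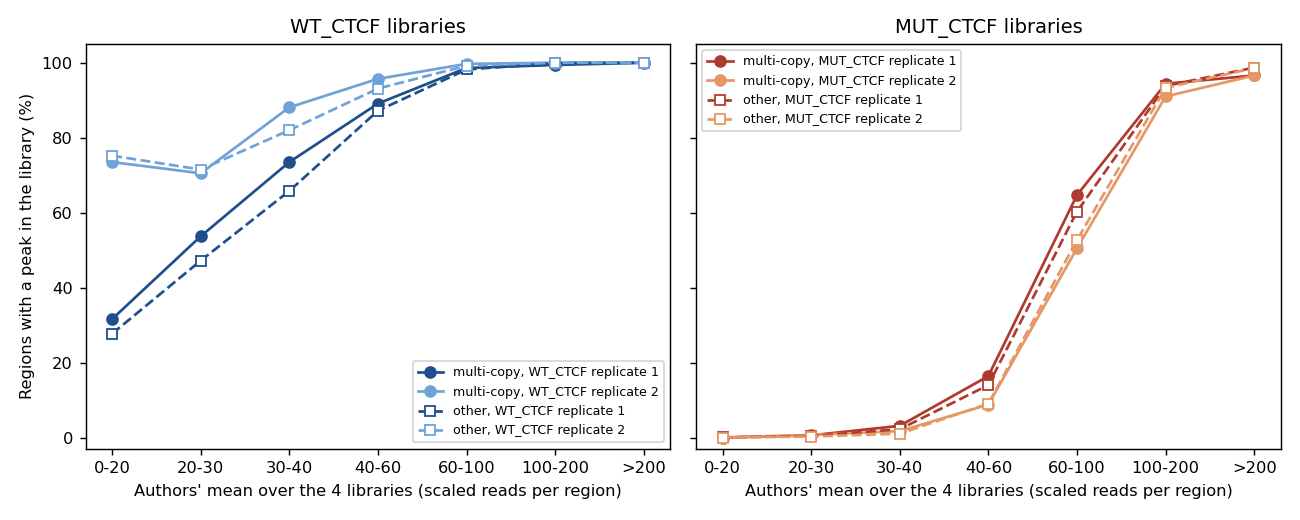
Share of regions with a peak (%, vertical axis) by range of the authors' mean (scaled reads per region, horizontal axis) in the WT_CTCF libraries, left, and the MUT_CTCF libraries, right; filled circles are multi-copy and open squares other regions, with one line per library. At a mean above 60 to 100, 64.7% and 50.5% of multi-copy and 60.3% and 52.7% of other regions were called in MUT_CTCF.

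Multi-copy regions also differed by where their other copies lay. The positions of 31-mers with up to 50 copies were listed. Each region was assigned to the place with the largest number of other copies, summed over its 31-mers. A 31-mer with many copies thus weighed more than one with few. The largest number lay within 1 Mb for 200 regions (5.66%) and elsewhere on the same chromosome for 79 (2.24%). It lay on contigs of the reference not placed on a chromosome for 54 (1.53%) and on other chromosomes for 2349 (66.5%). The remaining 851 (24.1%) had more than 50 copies. Of the regions with copies within 1 Mb, 77.5% and 93.5% were called in the WT_CTCF replicates and 56.0% and 55.5% in the MUT_CTCF replicates. With copies farther along the same chromosome the shares were 83.5%, 96.2%, 53.2% and 55.7%, and with copies on unplaced contigs 79.6%, 83.3%, 66.7% and 61.1%. With copies on other chromosomes they were 65.7%, 83.3%, 13.5% and 10.1%, and with more than 50 copies 55.3%, 77.0%, 4.94% and 3.53%.

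Joined, the first 3 classes held 333 regions (9.43%), repeated nearby, on their own chromosome or on unplaced contigs. Their mean called share was 85.9% ± 9.34 in WT_CTCF and 56.8% ± 0.425 in MUT_CTCF (SD, n = 2), a ratio of 0.661, the value also found in other regions. The separate classes did not share this value. Their ratios were 0.652 within 1 Mb, 0.606 farther along the same chromosome and 0.784 on unplaced contigs. The shares of the 333 regions differed from those of other regions by -8.56, -1.7, -4.17 and -2.72 percentage points in the 4 libraries (exact sign-flip test, p = 0.125). With copies on other chromosomes the shares were 74.5% ± 12.4 and 11.8% ± 2.41, a ratio of 0.159, and with more than 50 copies 66.2% ± 15.3 and 4.23% ± 0.997, a ratio of 0.0639 (SD, n = 2). The 333 regions were called more often than those with copies on other chromosomes in every library, by 13.5, 9.22, 43.5 and 46.3 percentage points (exact sign-flip test over 4 libraries, p = 0.125). They also differed in signal and sequence. Their median authors' mean was 74.75, against 30 with copies on other chromosomes and 23.75 with more than 50 copies. The string CCAGAAGAGGGC was in 8.41% of them, against 65.6% and 64.2%. Of the 375 multi-copy regions called in all 4 libraries, 168 were among these 333. The part of signal in the called shares was not tested separately from that of the location of the copies. For means above 60 to 100, 29 and 28 of 39 regions with copies within 1 Mb (74.4% and 71.8%) were called in the MUT_CTCF replicates. With copies on other chromosomes 126 and 88 of 196 (64.3% and 44.9%) were, beside 60.3% and 52.7% of 8172 other regions. For means above 100 to 200 the counts were 47 of 48 in each and 80 and 75 of 88 (90.9% and 85.2%), a smaller gap. Beside them, 93.8% and 93.3% of 11442 other regions were called.

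**Figure D4:**
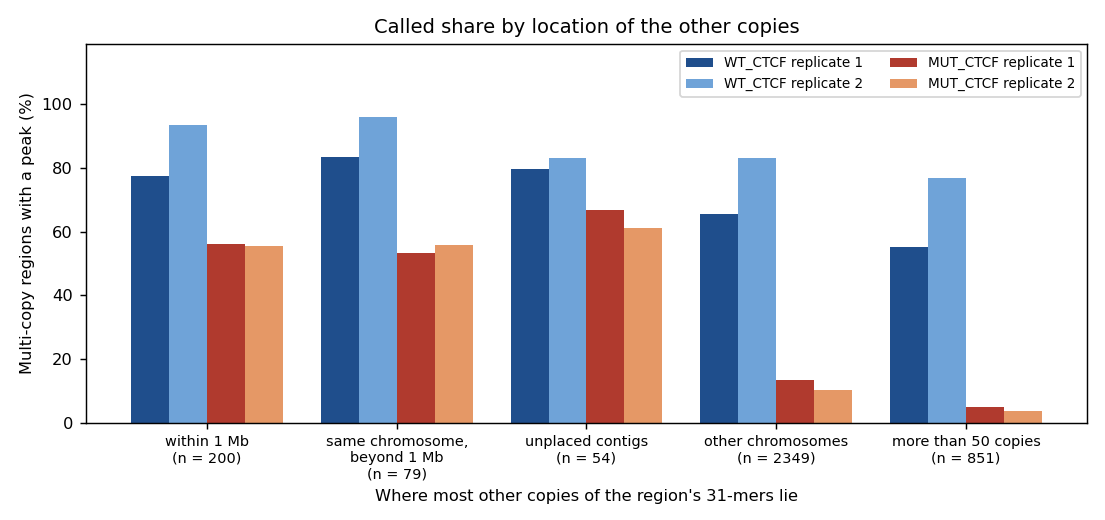
Share of multi-copy regions with a peak (%, vertical axis, bars for the 4 libraries) by the place holding the largest number of other copies of their 31-mers (horizontal axis, number of regions in brackets). In MUT_CTCF the shares are between 53.2% and 66.7% in the first 3 classes, against 13.5% and 10.1% with copies on other chromosomes and 4.94% and 3.53% with more than 50 copies.

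Members that shared at least 25% of their sampled 31-mers with another were joined into groups of related copies. There were 94 groups with 247 members, of which 57 lay on 1 chromosome and 65 were pairs. The other 3286 members were in no group. In 25 groups every member was called in all 4 libraries, and 117 of the 247 grouped members (47.4%) were, beside 52.7% of all regions. The 31 bases shared by most members identify the 3 largest groups, written along the plus strand.

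chr14:42676854-42676884, in 15 of 16 members: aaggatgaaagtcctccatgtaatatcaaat

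chr1:119909469-119909499, in 4 of 5 members: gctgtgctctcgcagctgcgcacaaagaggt

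chr12:18075150-18075180, in 5 of 5 members: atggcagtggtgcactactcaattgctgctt

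The largest group had 16 members between 42140240 and 45362917 of chromosome 14, a stretch of 3.22 Mb. Its members had means between 15.25 and 204.25, medians of 3 to 25.5 copies and no CTCF core. In WT_CTCF replicates 1 and 2, 12 and 16 of them were called, and in MUT_CTCF replicates 1 and 2, 7 and 8. The member with the highest mean, chr14:43974854-43975616, 1788 bp from Gm9732, had scores of 377 and 587 in WT_CTCF and 117 and 155 in MUT_CTCF. The second group had 5 members on chromosomes 1, 14, 15 and 17, of which 4 were called in all 4 libraries, and it included the region in Gm2619 described below. The third had 5 members within 2.21 Mb of chromosome 12 with means of 89.0 to 220.25, and 4 were called in all 4 libraries. At chr12:20287287-20287851, its strongest member, 133947 bp from Gm10479, the scores were 671 and 829 in WT_CTCF and 344 and 415 in MUT_CTCF. A group of 4 within 0.555 Mb of chromosome 13, in a part of the genome rich in zinc finger genes, had means of 123.5 to 330 and every member called in all libraries. Its strongest member, chr13:62571208-62571965, had scores of 1160 and 1199 in WT_CTCF and 503 and 548 in MUT_CTCF.

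The densest and strongest stretch was on chromosome 8. Between 19702928 and 20030313, over 327 kb, all 24 CTCF regions were multi-copy. They lie in and beside the transcripts 2610005L07Rik, Gm6483 and Gm10060, whose products are not well known. Of the 31 CTCF regions from 19 to 20 Mb, a window that begins before the stretch, 20 were multi-copy. Within the stretch, 9 regions were called in all 4 libraries, beside 52.7% of all 56277 regions. The strongest, chr8:19982536-19983304, overlaps an exon of 2610005L07Rik and had a mean of 2722.75, with scores of 8366 and 8820 in WT_CTCF and 6280 and 5563 in MUT_CTCF. Beside it, chr8:19984589-19985225, in an intron, had a mean of 1381.5 and scores of 2158 and 2538 in WT_CTCF and 2140 and 1870 in MUT_CTCF, so that the lower WT_CTCF value and the higher MUT_CTCF value nearly met. The region chr8:20020309-20020733 had a mean of 1238.25 and scores of 5852 and 6174 in WT_CTCF and 3014 and 2700 in MUT_CTCF, and it matched the full CTCF consensus. Also strong, chr8:19980418-19981187 had a mean of 1183.25 and scores of 2313, 2556, 1169 and 1077 in the same order. The 80 bases around the WT_CTCF replicate 1 summit of the first pair hold near matches to the consensus, in capitals.

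chr8:19982869-19982948, plus strand: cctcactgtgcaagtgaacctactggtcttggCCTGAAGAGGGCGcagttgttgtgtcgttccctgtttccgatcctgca

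chr8:19984907-19984986, plus strand: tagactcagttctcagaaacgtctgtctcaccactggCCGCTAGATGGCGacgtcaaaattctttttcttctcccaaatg

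Calls in the stretch did not separate the genotypes. Of its 24 regions, 11 and 14 were called in the WT_CTCF replicates and 16 and 12 in the MUT_CTCF replicates, and the groups overlapped. In the same order, 64.5%, 82.6%, 15.6% and 12.9% of all multi-copy regions were called. Of other regions, 87.8%, 94.2%, 61.2% and 59.2% were. Without the 9 called in all 4 libraries, 2 and 5 of the stretch were called in WT_CTCF and 7 and 3 in MUT_CTCF. These remaining 15 regions had scores of 30 to 76 where called, and none was called in more than 2 libraries. Of the 3 multi-copy regions called in both MUT_CTCF and no WT_CTCF library, 2 lay here. The region chr8:19953235-19953562 had a mean of 67.75 and scores of 67 and 58, and chr8:20017485-20017720 had a mean of 32.25 and scores of 30 in each. The remaining one, chr15:71878479-71878782, 13821 bp from Col22a1, a collagen gene, had a mean of 35.75 and scores of 30 and 39.

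**Figure D5:**
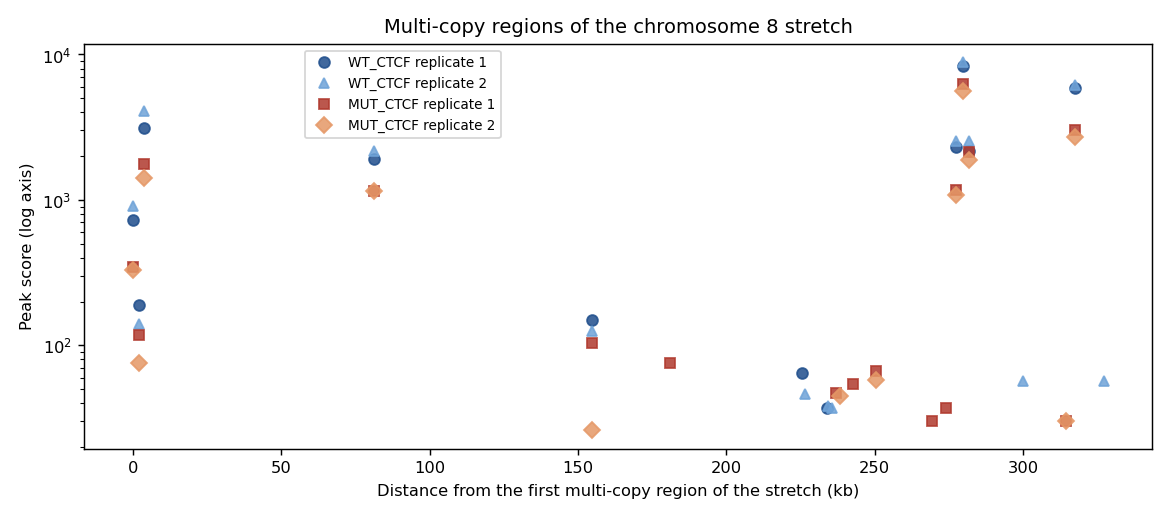
Peak scores (log axis, vertical) of the 24 multi-copy regions of the chromosome 8 stretch by distance from the first of them (kb, horizontal axis), one symbol per library; a region without a symbol of a library had no peak there. In the 9 regions called in all 4 libraries scores reach 8820, and the others lie at 76 or below.

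The highest authors' mean of all multi-copy regions, 5020, was at chr2:98507257-98507449, in an exon of the predicted gene Gm10800. The width was 193 bp. Its scores were moderate, 622 and 747 in WT_CTCF, with no call in MUT_CTCF. Per kb its mean was 26010, against 3541 at chr8:19982536-19983304, where the WT_CTCF scores were 8366 and 8820. A high mean here thus went without a high peak score. The input libraries were not analysed, so the part of background in this mean was not tested. Near it, chr2:98502395-98502951 in Gm10801 had a mean of 1544.25 and scores of 573 and 527 in WT_CTCF and 147 and 91 in MUT_CTCF. Neither held the core, and the best match to the 13-base consensus had 3 mismatches in each. At chr1:85319591-85320391, in an intron of Gm2619, the mean was 1748.25 and scores were 4768 and 5806 in WT_CTCF and 5177 and 4659 in MUT_CTCF, so that the groups overlapped. It had a median of 16.5 copies and no 50-base stretch unique in the whole reference, although 30.3% of its 50-mers were unique when unplaced contigs were left aside. Its summit sequence holds a near match to the consensus.

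chr1:85319917-85319996, minus strand: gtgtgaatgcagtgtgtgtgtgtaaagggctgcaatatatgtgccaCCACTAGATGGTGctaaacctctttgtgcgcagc

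By their listed copies, the strongest chromosome 8 region and those in Gm10800, Gm10801 and Gm2619 were in the class with copies on other chromosomes. Strong regions with copies mostly within 1 Mb lay on chromosome 8 and also elsewhere. In an exon of Gsdma, a gasdermin gene of skin, chr11:98534192-98535157 had a mean of 916.0, 2 cores, and scores of 3931 and 4053 in WT_CTCF and 2605 and 2182 in MUT_CTCF. At chr16:3122789-3123370, 126213 bp from the nearest annotated gene, the mean was 745.0 and the scores were 3374 and 3741 in WT_CTCF and 1849 and 1946 in MUT_CTCF. In both, MUT_CTCF scores were lower, which was also the general state of regions called in all 4 libraries. Scores were not shown to be comparable between libraries of unknown depth, so they do not measure a change in binding. Over 29308 other regions the median ratio of MUT_CTCF to WT_CTCF score was 0.443. Regions whose copies lay on unplaced contigs included several at Disc1, a gene linked with psychiatric disease in people, and its neighbour Tsnax on chromosome 8. The strongest in Disc1, chr8:127689530-127690132, had a mean of 357.25 and scores of 1372 and 1275 in WT_CTCF and 761 and 656 in MUT_CTCF. In Slc12a3, the sodium chloride transporter of the kidney, chr8:96854423-96855127 had a mean of 434.25 and scores of 1460 and 1632 in WT_CTCF and 657 and 638 in MUT_CTCF. These last 2 regions were chosen for naming after their values were seen.

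Among the 1113 regions called in both WT_CTCF and no MUT_CTCF library, the highest scores after Gm10800 were in introns. In Crlf3, a cytokine receptor-like gene, chr11:79879746-79880432 had a mean of 159.25 and scores of 520 and 672. In Pecam1, which encodes an endothelial adhesion protein, chr11:106601808-106602517 had a mean of 131.25 and scores of 439 and 424. In Slc15a2, a peptide transporter gene, chr16:36770229-36770609 had a mean of 90.25 and scores of 273 and 362. The Crlf3 and Pecam1 regions held 1 core each and the Slc15a2 region none.

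The regions with the most copies were weak. The highest median was 6852 copies, at chr4:22298753-22298926 in an intron of Fbxl4, a mitochondrial F-box gene, with a mean of 41.0 and a single call, in WT_CTCF replicate 2, with a score of 114. At chr13:105731258-105731715, 5517 bp from Rgs7bp, the median was 4510 copies and the mean was 54.0. It was called in all 4 libraries, with scores of 79 and 90 in WT_CTCF and 48 and 39 in MUT_CTCF. At chr13:48626605-48626774, 4606 bp from Mirlet7d, there were 4193 copies and 1 call, with a score of 47. At chr15:45667418-45667781 there were 3404.5 copies and scores of 113 and 203 in WT_CTCF and none in MUT_CTCF. In an intron of Pcnx, chr12:83024813-83024983 had 3033 copies and 1 call, with a score of 38. None of these 5 held the core.

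In longer stretches most of the sequence was not repeated. Of the 3533 regions, 2265 had a median of 1 copy when read in 50-mers, and the median share of unique 50-mers was 58.33%. In 79 regions no 50-mer was unique in the whole reference, and 33 of these were called in all 4 libraries. Of all 56277 regions 52.7% were called in all 4, and of all multi-copy regions 10.6%. In 27 of the 79 none was unique on chromosomes 1 to 19, X and Y either, and 2 of these were called in all 4. How reads were placed in regions without unique sequence was not given in the sources used here beyond the removal of multiply aligned reads. Whether the authors aligned to unplaced contigs was not given either, so some of the 79 may have held sequence unique to their alignment.

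By annotation, 1650 multi-copy regions (46.7%) lay in introns and 1748 (49.5%) between genes, against 38.4% and 47.4% of other regions. Exons were touched by 135 (3.82%), against 14.2%, and untranslated exon parts by 50 (1.42%), against 6.87%. The 3000 bp before a transcription start were touched by 518 (14.7%), against 15.8%. The median G+C content was 42.74%, against 45.88%. On single chromosomes the multi-copy share of CTCF regions ranged from 4.51% on chromosome 5 to 8.37% on chromosome 11, where 439 of 5247 regions were multi-copy.

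Gene families known for many copies held few of the regions. Many of these families had few CTCF regions of any kind, so their small counts say little beside the 6.28% of all regions. Of 23 families counted by gene symbol, the predicted genes (Gm) overlapped 176 multi-copy regions of 2071 CTCF regions (8.5%), and the Riken clones 147 of 2048 (7.18%). Zinc finger genes overlapped 22 of 338 (6.51%), near the 6.28% of all regions. Their strongest was in Zfp148, at chr16:33387878-33388369, with a mean of 78.5, 2 cores and scores of 163 and 216 in WT_CTCF and no call in MUT_CTCF. Olfactory receptor genes overlapped 1 of 22, vomeronasal receptor genes 1 of 9, cytochrome P450 genes 3 of 61, serpins 2 of 23, histone genes and their copies 2 of 36, small RNA genes 6 of 173 and antigen receptor segments 1 of 11. At the olfactory pseudogene Olfr1175-ps, chr2:88162905-88163154 had scores of 79 and 57 in WT_CTCF and none in MUT_CTCF. In Vmn2r85, chr10:129856911-129857433 had 68 and 79 in WT_CTCF and 30 in MUT_CTCF replicate 2 alone. At a U6 small RNA copy, chr1:169279233-169279783 had 313 and 299 in WT_CTCF and 106 and 67 in MUT_CTCF. In Speer7-ps1, of a family amplified in rodents, chr5:15208605-15209123 was the family's single CTCF region and had 455 and 553 in WT_CTCF and 200 and 303 in MUT_CTCF. In Serpinb9e, a protease inhibitor gene of a local cluster, chr13:33348690-33348963 had 113 and 114 in WT_CTCF and 97 in MUT_CTCF replicate 1 alone. Trav10n, Cyp2j11 and Pramel7 each overlapped a region called in WT_CTCF replicate 2 alone, with scores of 114, 65 and 47. The 3 regions counted for ribosomal protein symbols had their strongest in Rps6kl1, a kinase gene that only shares the prefix, with scores of 129 in each WT_CTCF replicate and none in MUT_CTCF. The 2 counted for histones had their strongest at the pseudogene H3f3a-ps2, with 20 and 46 in WT_CTCF and 22 in MUT_CTCF replicate 2. No multi-copy region overlapped a gene of the Ly6, UDP glucuronosyltransferase, defensin, prolactin, pregnancy-specific glycoprotein, kallikrein, keratin, secretoglobin or MHC families, which had between 1 and 16 CTCF regions each, and major urinary protein genes had no CTCF region.

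At the threshold, 194 members had the lowest median, 1.5 copies, and 43 of them were called in at least 1 MUT_CTCF library (61.7% of all regions were). The 3 of these with the lowest mean copy number lay in Tk1 (chr11:117677746-117677934, mean 36.75), in Pnp (chr14:51564047-51564536, mean 89.25) and at Olfr1175-ps (mean 34.5), and all 3 were called in both WT_CTCF and no MUT_CTCF library. Just outside, with a median of 1 but a high mean copy number, lay regions in Cabp5 (chr7:13988229-13988426, mean signal 28.75) and Relt (chr7:108011902-108012330, mean signal 278.75) and one at chr11:89070600-89070752 (mean signal 21.25). The Relt region had scores of 698 and 726 in WT_CTCF and 165 in MUT_CTCF replicate 1, and the other 2 were called in 1 WT_CTCF library each.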

How the data were processed

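CTCF ChIP-seq was measured in 2 WT_CTCF and 2 MUT_CTCF libraries, with groups and replicates read from sample titles. The authors trimmed reads with Trim Galore 0.4.4, aligned them to mm9 with Bowtie2 2.3.4.1, removed multiply aligned and duplicate reads, and scaled libraries by Drosophila spike-in reads. The deposited peak lists, called per library with MACS2 2.1.1.20160309, give a score whose definition, cutoff and use of input were not stated, and a summit offset. The authors' deposited table gives a mean signal per joined region (spike-in scaled counts over 4 libraries). Its fold changes, errors, test statistics and p-values were made by the authors with DESeq2 1.38.0 and were not used.

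Here, exact 31-mer and 50-mer copies were counted on both strands of the reference (NCBIM37, the same build, unplaced contigs included) with numba 0.67.0, numpy 2.4.6 and pandas 2.3.3 in Python 3.11.15, after a test on simulated data. A region was called in a library when a peak overlapped it by at least 1 bp, and its score was that of the highest such peak. Annotation was GENCODE vM1. Groups were compared by exact two-sided permutation of libraries, and multi-copy with other regions by exact sign flips over libraries. Figures were drawn with matplotlib 3.10.9. Members, families and tests were chosen with earlier results of these data known. Named regions were those with the highest means, copy numbers or scores, the strongest called in 1 genotype only, the strongest of each gene family and of the 5 largest groups, and 3 on each side of the threshold; the sequences shown around the core were chosen after values were seen. A region that the rule names is not reported here. Alternatives were other k-mers, sampling, copy limits and genome parts, stricter peaks, other scores and motifs, and leaving out replicates or the strongest regions.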

Additional observations from a re-analysis of the deposited data

How the results depend on the processing

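Over 10 results and 117 alternative values, 9 changed direction and 7 others moved. Most results were judged by direction alone, and some kept it at a much smaller size. Counting 50-mers left 1268 members, with a difference in the number called of -728. Of these members 358 were called in both WT_CTCF and no MUT_CTCF library, and the difference in core share was 11.69 percentage points. With scores at or above 250 the number called in both WT_CTCF and no MUT_CTCF library was 117. The differences between genotypes shrank to -163.5 in the number called and -0.05681 in relative called share, and the difference in median score, MUT_CTCF minus WT_CTCF, turned to -37.5. Most called multi-copy regions scored below this limit in every library. The 13-base consensus gave a difference of 10.08 points, and the authors' mean per region in place of per kb a ratio of 0.2783. Within ranges of the authors' mean, chosen after seeing the data, the called share of members minus others was 1.519, 3.861, 1.652 and 0.804 points above 20 to 30, 30 to 40, 40 to 60 and 60 to 100, and the relative called share, MUT_CTCF minus WT_CTCF, was 0.8898, 0.4491, 0.04755 and 0.0114. Above 100 to 200 and above 200 both kept the pooled sign, at -0.5427 and -0.9916 points and at -0.007608 and -0.02017. The relative values for means up to 40 rest on few MUT_CTCF calls. Above 20 to 30 these were 6 and 7 of 1025 members and 17 and 11 of 4044 others, in replicates 1 and 2. Above 30 to 40 they were 20 and 11 of 638 members and 93 and 43 of 4187 others. The causes were not tested.

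Leaving out 1 replicate gave 1170 to 2317 members called in the remaining WT_CTCF and no MUT_CTCF library (2317 without WT_CTCF replicate 1 and 1702 without replicate 2, where 1 call is enough). The difference in the number called was -2416 to -1776, in relative called share -0.641 to -0.4982, in median score 19 to 31 and in relative score 0.1378 to 0.1899. With the replicate number as a block the mean differences stayed at -2096 and 25 (exact sign-flip test over 2 pairs, p = 0.5, the smallest possible), and same-numbered replicates did not deviate together (r = -0.0041 over 29683 regions called in all 4). The exact tests used cannot pass 0.05 with 2 libraries a group, so they say nothing of the stability of calls. The unknown depth limits what an absent peak shows.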
